A study of Mus musculus with 6 samples.

Results

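The cytosolic ribosomal proteins were taken as every protein-coding gene whose mouse symbol begins with Rpl or Rps, with the Rps6k kinase genes left out. This rule picked 92 genes of the 54232 in the count files. Of these, 43 encode proteins of the large subunit, 31 encode proteins of the small subunit and 3 encode the stalk proteins (*Rplp0*, *Rplp1* and *Rplp2*), and these 77 are called canonical here. A further 7 are paralogues of canonical genes (*Rpl3l*, *Rpl10l*, *Rpl22l1*, *Rpl36al*, *Rpl39l*, *Rps27l* and *Rps27rt*). *Rpl7l1* and *Rps19bp1* are named alike but encode no protein of the cytosolic ribosome, and 6 genes are annotated as protein coding although their symbols carry a pseudogene suffix.

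RNA was sequenced from the heart ventricle of wild-type C57BL/6J mice that all received a western diet (WD) for 15 weeks. For 3 weeks they were then needle-fed either tributyrin at 5 g/kg body weight (WD + Tributyrin, n = 3) or PBS (WD + Vehicle, n = 3). Tributyrin is a glycerol ester that releases butyrate, and the comparison asks which cardiac transcripts differ with that treatment. An age is stated only for another cohort of the study, no mice on normal chow were among the libraries, and the tissue holds cardiomyocytes together with fibroblasts, endothelial cells and macrophages. In such bulk samples fewer cells of a type and less RNA per cell cannot be told apart. The 6 libraries held 20369746 to 32734485 counted reads each, and mitochondrially encoded genes took 23.6% to 28.8% of them. Markers of cardiomyocytes, 10 genes, summed to 74981 to 77624 CPM (counts scaled to the library total) with vehicle and to 69317, 77284 and 70039 CPM in tributyrin replicates 1, 2 and 3. The sum of 6 atrial markers ranged from 68.5 to 201 CPM with vehicle and from 33.0 to 68.8 CPM with tributyrin. All 6 markers had negative log2 fold changes, tributyrin over vehicle (median -1.90). An unadjusted p under 0.05 was found for 5 of the 6 (edgeR's quasi-likelihood test), beside 2.28% of all genes tested, counting those lower with tributyrin. Among vehicle mice, replicate 3 was lowest for *Myl7*, *Sln*, *Myl4*, *Mybphl* and *Dkk3* but highest for *Nppa* (1046 normalised counts against 554 and 485). The dissected ventricles thus carried unequal amounts of atrial transcripts, whose part in the results below was not tested.

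A cytosolic ribosome joins a small subunit, which reads the mRNA, to a large subunit, which forms the peptide bonds. One copy of almost every ribosomal protein is needed per ribosome, so their mRNAs are made at similar levels in most tissues. Many of these mRNAs start with an uninterrupted stretch of pyrimidines, the 5′ terminal oligopyrimidine (TOP) motif, through which their translation answers to nutrient signals. The genes are also known for the many processed pseudogenes they have left in mammalian genomes, and some of those pseudogenes are themselves transcribed. Striated muscle is unusual in making *Rpl3l*, a paralogue that can take the place of *Rpl3* in the large subunit.

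The copied sequence mattered for how these genes could be counted, because the reads were 50 bases long and single-end. Over the 77 canonical genes, a median of 50.7% of the 50-base windows in the main transcript also occurred, without a mismatch, in annotated transcripts of other genes. That share reached 98.6% for *Rps27*, was over 50% for 39 genes and at most 10% for 4. An annotated pseudogene that held at least 10% of the windows was found for 71 of the 77. There were 424 such pseudogenes, and 373 of them had at most 10 counts in every library. Only 5 reached 100 counts in some library, namely *Rps3a3*, *Gm8730*, *Gm9625*, *Gm14303* and *Gm13436*. The first of these is a copy of *Rps3a1*, and *Gm8730* and *Gm9625* are copies of *Rplp0*.

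The stretch below shows how little separates *Rps3a1*, which encodes a small-subunit protein, from *Rps3a3*. The pair differed at 9 of 795 aligned bases (98.9% identity). In GRCm38 the stretches lie at chr3:86141307-86141426 on the minus strand, in the coding sequence of *Rps3a1*, and at chr13:108670769-108670888 on the plus strand, inside the single exon of the *Rps3a3* pseudogene. They are shown because the largest difference among all the genes of the class was at *Rps3a1*, and capitals mark the bases that differ.
Rps3a1: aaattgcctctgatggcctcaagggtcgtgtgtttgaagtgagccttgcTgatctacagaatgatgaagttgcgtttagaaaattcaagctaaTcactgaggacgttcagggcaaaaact
Rps3a3: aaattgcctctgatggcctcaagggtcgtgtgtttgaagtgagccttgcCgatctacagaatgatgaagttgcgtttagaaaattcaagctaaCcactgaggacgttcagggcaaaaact

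*Rplp0* encodes the base of the stalk, the arm of the large subunit that recruits elongation factors. It differed from *Gm8730* at 12 of 954 aligned bases and from *Gm9625* at 24 of 954. In GRCm38 the *Rplp0* stretch compared with *Gm8730* lies at chr5:115561108-115561227 on the plus strand, and its counterpart at chr8:102865352-102865471 on the minus strand. Capitals again mark the differing bases.
Rplp0: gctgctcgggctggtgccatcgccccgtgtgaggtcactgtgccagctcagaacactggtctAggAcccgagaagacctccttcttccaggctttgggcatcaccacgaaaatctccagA
Gm8730: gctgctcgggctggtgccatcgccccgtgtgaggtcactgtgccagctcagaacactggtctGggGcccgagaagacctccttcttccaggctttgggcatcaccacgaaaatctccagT

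*Rps3a1* had 987, 877 and 999 normalised counts in vehicle replicates 1 to 3, and 2650, 990 and 3003 in tributyrin replicates 1 to 3. Tributyrin replicates 1 and 3 were therefore about the same height and far above the vehicle mice, while tributyrin replicate 2 lay among the vehicle mice, so the groups overlapped. The fitted log2 fold change was 1.21 (SE 0.31), with an unadjusted p of 0.0027 and an adjusted p of 0.999 (edgeR's quasi-likelihood test, Benjamini-Hochberg over 14133 genes). The pseudogene *Rps3a3* showed the opposite order. It had 1695, 1721 and 1637 normalised counts with vehicle against 830, 1647 and 988 with tributyrin, so the mice that were high for *Rps3a1* were the low ones for its copy. The log2 fold change of *Rps3a3* was -0.54 (SE 0.20, unadjusted p = 0.022 in the same edgeR test).

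Of the reads counted on either gene of that pair, *Rps3a1* took 36.8% (95% Wilson interval 35.0 to 38.7), 33.8% (32.2 to 35.4) and 37.9% (35.85 to 39.97) in the vehicle mice. In the tributyrin mice it took 76.1% (74.7 to 77.5), 37.5% (35.8 to 39.3) and 75.3% (73.8 to 76.7). The shares lay near 1 of 2 levels, with 4 mice at the lower and tributyrin replicates 1 and 3 at the upper level. These intervals cover counting error only, since PCR copies of a molecule were not told apart. With both genes added, the normalised counts were 2683, 2598 and 2636 with vehicle and 3480, 2637 and 3991 with tributyrin. The log2 fold change of the sum was 0.35 against 1.21 for *Rps3a1* alone, with an adjusted p of 0.999 (edgeR). Without tributyrin replicate 2 the log2 fold change of *Rps3a1* was 1.57 with an adjusted p of 0.000367 (edgeR), and the same gene also passed where no filter on low counts was applied.

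*Rplp0* showed a split of the same kind, but across the groups. It had 5651, 9329 and 5806 normalised counts with vehicle and 6437, 8550 and 10630 with tributyrin. *Gm8730* had 1744, 994 and 1784 with vehicle and 1923, 809 and 1075 with tributyrin, and *Gm9625* had 601, 304 and 609 with vehicle and 652, 325 and 392 with tributyrin. Vehicle replicate 2 and tributyrin replicates 2 and 3 were thus high for *Rplp0* and low for both copies. *Rplp0* took 87.8%, 88.3% and 87.9% of the reads of the 3 genes in these mice, and 70.7%, 70.8% and 71.4% in vehicle replicates 1 and 3 and tributyrin replicate 1, with Wilson intervals of 69.6 to 72.3% and 87.2 to 88.9% over the mice of either level. The mice at the upper level were not those at the upper level for *Rps3a1*, apart from tributyrin replicate 3. The log2 fold change of *Rplp0* was 0.30 (SE 0.21, unadjusted p = 0.175, edgeR), and it was 0.20 with the counts of its pseudogene copies added. The value for *Rplp0* was 0.12 without tributyrin replicate 3, 0.18 without vehicle replicate 1, 0.19 without vehicle replicate 3, 0.58 without vehicle replicate 2 and 0.47 without tributyrin replicate 1. With no filter on low counts the adjusted p of *Rplp0* was 0.0725 (edgeR). Whether the mice differ in sequence at these genes was not tested, since the count files hold no bases.

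**Figure D1:**
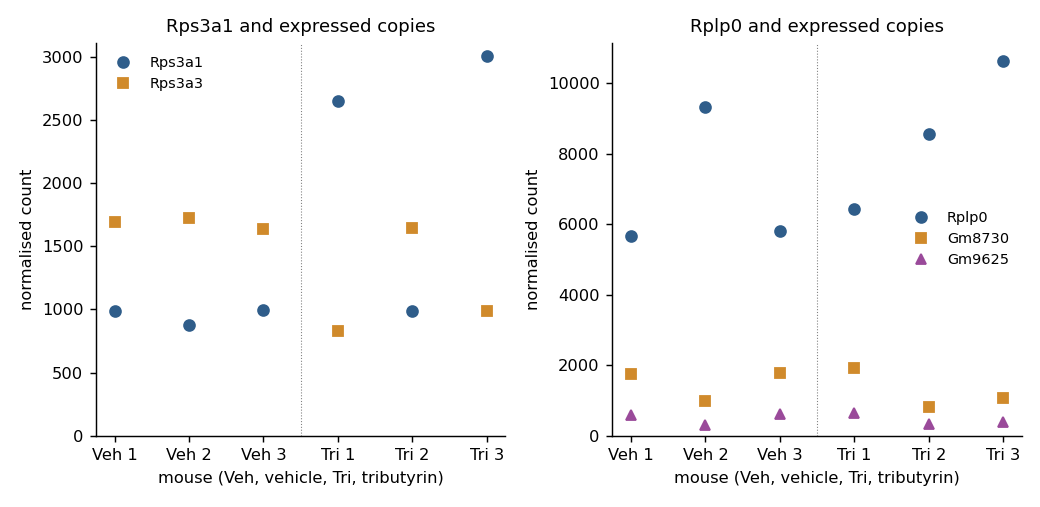
Normalised counts (y axis, from 0) in each of the 6 mice (x axis) for *Rps3a1* with its pseudogene *Rps3a3* (left) and for *Rplp0* with *Gm8730* and *Gm9625* (right); each point is 1 mouse and the dotted line parts the groups. *Rps3a1* reached 2650 and 3003 in tributyrin replicates 1 and 3, where *Rps3a3* was at 830 and 988, and *Rplp0* was at 8550 or more in vehicle replicate 2 and tributyrin replicates 2 and 3.

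Of the 92 genes, 83 passed the filter on low counts and could be tested, among them 76 of the 77 canonical genes. The exceptions were *Rpl24*, the paralogues *Rpl10l*, *Rpl36al* and *Rpl39l*, and 5 of the 6 genes with a pseudogene suffix. At a false discovery rate (FDR) of 10%, edgeR's quasi-likelihood test called 0 of the 83, and 0 of all 14133 genes tested (0.0%). DESeq2 called 0 of them and 11 genes in all (0.0848% of 12977). At an unadjusted p under 0.05, edgeR gave 5 members (6.02%), all higher with tributyrin, beside 4.25% of all genes tested, of which 1.97% were higher and 2.28% lower. limma-voom also gave 5 members at that threshold, beside 4.28% of all genes. The count depended on 1 library, because it was 43 members without tributyrin replicate 2, all of them higher, beside 9.56% of all genes in that fit. It was 2 of 84 without vehicle replicate 3, without tributyrin replicate 1 and without tributyrin replicate 3, beside 2.68%, 3.74% and 4.57% of all genes in those fits.

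Of the 5, *Rps3a1* is described above. *Rps10*, a small-subunit protein at the head of the subunit, had 1630, 1662 and 1570 normalised counts with vehicle and 1986, 1662 and 2121 with tributyrin. Its lowest tributyrin value only just exceeded its highest vehicle value (1662.03 against 1661.71). The log2 fold change was 0.25 (SE 0.09, unadjusted p = 0.022, edgeR). *Rps25*, another small-subunit protein, had 2146, 1973 and 2025 with vehicle and 2393, 2134 and 2559 with tributyrin, a log2 fold change of 0.21 (SE 0.08, unadjusted p = 0.029, edgeR). Tributyrin replicate 2 lay just below vehicle replicate 1, so these groups overlapped. *Rpl22l1*, the paralogue of *Rpl22*, had 560, 518 and 537 with vehicle and 674, 560 and 658 with tributyrin, a log2 fold change of 0.23 (SE 0.09, unadjusted p = 0.035, edgeR). Its lowest tributyrin value lay just under its highest vehicle value (560.10 against 560.24). Copied windows made up 70.3% in *Rps10*, 26.2% in *Rps25* and 57.3% in *Rpl22l1*. Another annotated gene at the same locus held 8.57%, 46.5% and 22.3% of their windows, in that order. The values of these genes are therefore also uncertain as levels of mRNA.

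The remaining gene of the 5, *Rpl9-ps6*, had few reads, with counts of 33, 24 and 15 in the vehicle mice and 39, 38 and 39 in the tributyrin mice. Its normalised counts were 34.3, 18.6 and 18.6 with vehicle and 36.5, 34.7 and 44.7 with tributyrin, and the log2 fold change was 0.69 (SE 0.31, unadjusted p = 0.047, edgeR), which was 1.05 without vehicle replicate 1. It shared 89.2% of its windows with *Rpl9*, a large-subunit protein gene with 4213 to 6030 normalised counts, and took between 0.393% and 0.817% of the reads of the pair. With so much shared sequence its value is uncertain. Groups that did not overlap, higher with tributyrin, were found for *Rps10* and *Rpl9-ps6* (2 of 83, 2.41%), beside 4.26% of all genes tested, and groups lower with tributyrin for 0 of 83, beside 4.65%.

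Small differences of one sign were common. The log2 fold change was positive for 79 of the 83 genes (95.2%), beside 49.6% of all genes tested. Their median was 0.11 with an interquartile range of 0.07 to 0.15, and the median of all genes tested was -0.0013. The genes with negative values were *Rps27rt* (-0.30), *Rpl3* (-0.10), *Rpl29* (-0.01) and *Rpl7l1* (-0.01). By role, the large-subunit genes had a median of 0.10 (40 of 42 positive), the small-subunit genes 0.12 (31 of 31) and the stalk genes 0.16 (3 of 3). *Rps27rt*, itself at 6.396 to 16.1 normalised counts with 91.1% of its windows copied, had an SE of 0.47. The median was 0.11 both for the 38 canonical genes with at most 50% of their windows copied and for the 38 tested genes above that share. Over the 7 tested members with at most 10% of their windows copied, which include *Rpl7l1* and *Rps19bp1*, it was 0.06. With scaling by library size alone the median of the 83 genes was 0.04 and 60 were positive, while the median of all genes was -0.07, so the difference between the members and all genes was again 0.11.

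**Figure D2:**
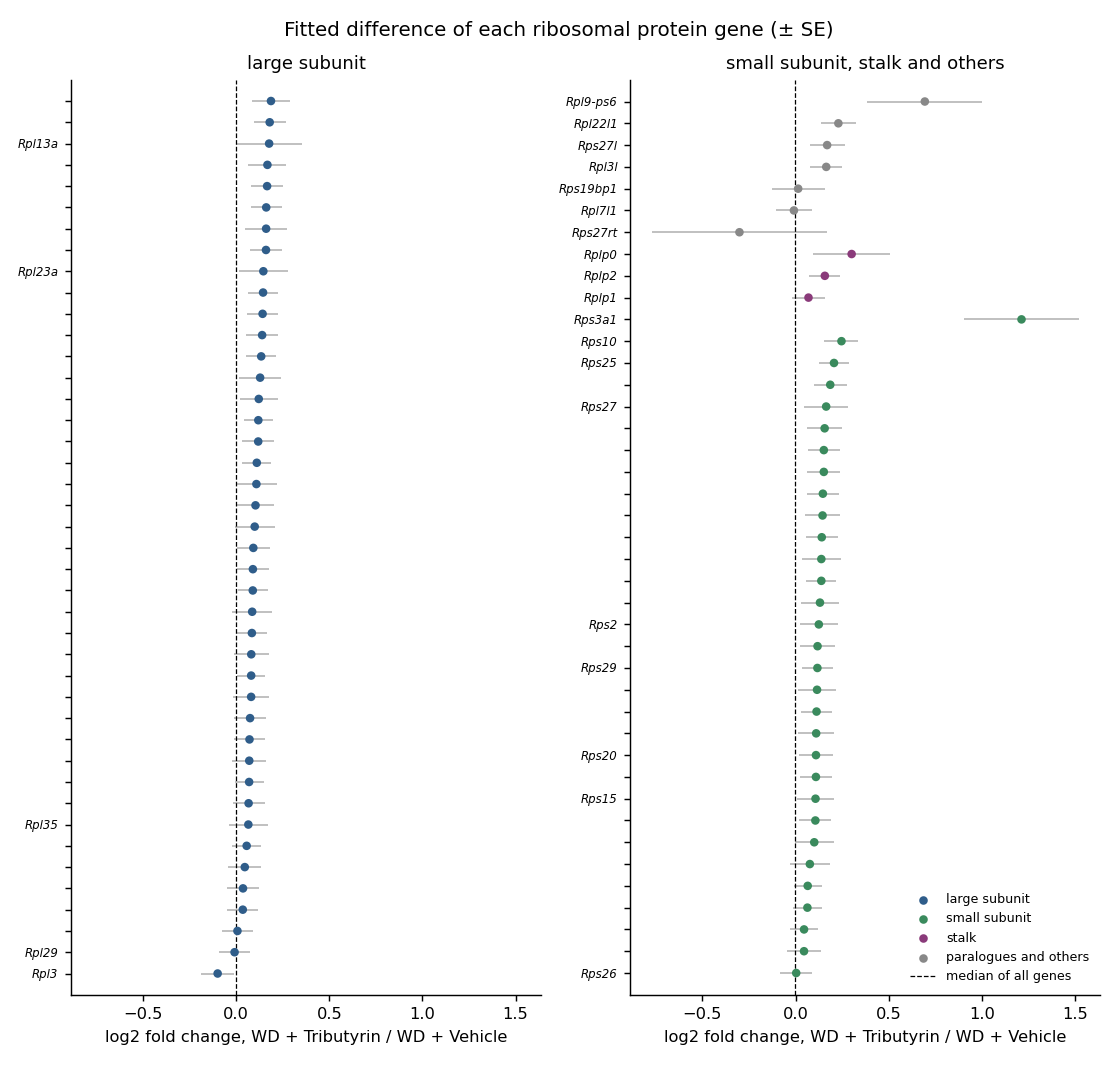
Fitted log2 fold change (x axis) of the 83 tested genes (y axis, 1 row a gene, those named in the text labelled), with bars of 1 SE, large-subunit genes on the left and small-subunit genes, stalk genes and the others on the right. The dashed line is the median of all 14133 genes. Most points lie between 0.05 and 0.25, and *Rps3a1* stands apart at 1.21.

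The mice given tributyrin did not share this shift. For each canonical gene the normalised count was divided by the mean of the vehicle mice, and the median of these ratios over the 76 tested genes was 1.00 in each vehicle mouse. In the tributyrin mice it was 1.07, 0.964 and 1.21 for replicates 1, 2 and 3. Tributyrin replicate 3 was the highest of the 6 mice for 74 of the 76 genes, and tributyrin replicate 2 was the lowest for 46. The first replicate exceeded every vehicle mouse for 57 genes, the second for 2 and the third for 74, while the second lay below every vehicle mouse for 48. Large-subunit, small-subunit and stalk genes had medians of 1.20, 1.23 and 1.24 in tributyrin replicate 3, the highest mouse for each, and of 0.960, 0.964 and 0.997 in replicate 2. Replicate 2 was the lowest mouse for both subunits, but for the 3 stalk genes vehicle replicate 1 was lower (0.962). Without tributyrin replicate 3, 52 of 84 tested members had a positive log2 fold change and their median was 0.03. Without tributyrin replicate 2 it was 0.19.

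**Figure D3:**
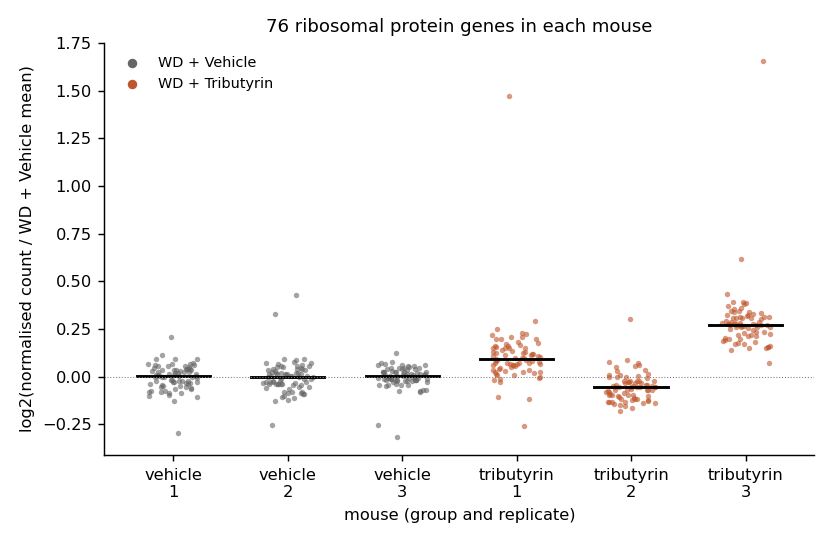
log2 ratio of the normalised count to the mean of the vehicle mice (y axis) for the 76 tested canonical genes in each mouse (x axis); each point is 1 gene and each bar the median of a mouse. The bars of the vehicle mice lie at ratios of 1.00, and those of tributyrin replicates 1, 2 and 3 at ratios of 1.07, 0.964 and 1.21. The points far above the others in tributyrin replicates 1 and 3 are *Rps3a1*.

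Measured over all counted reads, the 92 genes took 1.02% ± 0.03 in the vehicle group and 1.05% ± 0.09 in the tributyrin group (SD, n = 3 each), and counting error gave each mouse an interval of at most ±0.00439 percentage points. The difference of 0.0311 percentage points was smaller than the spread between the tributyrin mice. It was -0.0156 without tributyrin replicate 3, 0.0755 without tributyrin replicate 2 and 0.0129 without vehicle replicate 1. With mitochondrially encoded genes left out of the total, the shares were 1.34%, 1.36% and 1.36% in the vehicle mice and 1.45%, 1.30% and 1.61% in the tributyrin mice. The mouse order was thus the same on both scales, with tributyrin replicate 2 lowest and tributyrin replicate 3 highest. Mitochondrial reads moved along with it in part, at 26.5%, 23.6% and 24.1% with vehicle and 27.7%, 25.9% and 28.8% with tributyrin.

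Gene length also moved with the mouse pattern in other genes. Length was taken here as the bases covered by all annotated exons of a gene. Other genes of at most 1000 bases with a mean of at least 500 normalised counts (108 genes) had median ratios to the vehicle mean of 1.09, 0.941 and 1.19 in tributyrin replicates 1, 2 and 3, and of 0.980 to 1.02 in the vehicle mice. Their median log2 fold change was 0.09, with 81.5% positive. In tributyrin replicate 3 the ratio of other genes went from 1.19 in that class to 1.134 at 1000 to 2000 bases, 1.06 at 2000 to 4000 bases and 0.968 above 4000 bases. The ribosomal protein genes showed no such order, with 1.24, 1.21, 1.20 and 1.22 in the same classes, which held 13, 34, 30 and 6 of the 83 tested members. Their median log2 fold changes were 0.12, 0.11, 0.12 and 0.12. Their main transcripts were shorter than the exons together, at most 1000 bases in 59 of the 83, so a class by exon length holds ribosomal protein mRNAs shorter than it says. The part of transcript length, or of RNA quality, in the shift of the ribosomal protein genes was not tested. Summed fibroblast markers were at 2405 to 2621 CPM with vehicle and at 2088, 2671 and 2166 CPM with tributyrin, lowest in the mice with the higher ribosomal protein ratios, and macrophage markers were at 241 to 297 and at 233, 290 and 248 CPM. All 8 fibroblast markers were tested, and 2 of them, *Col1a1* and *Lum*, had an unadjusted p under 0.05, both lower with tributyrin (edgeR). Of the 8 macrophage markers 7 had negative log2 fold changes, but *Lyz2* was positive at 0.17 (unadjusted p = 0.039, edgeR). Endothelial markers were positive in 5 of 8, with *Fabp4* at 0.28 (unadjusted p = 0.018, edgeR). All 6 smooth muscle markers were positive, with *Cnn1* at 0.71 and *Myh11* at 0.59 (unadjusted p = 0.020 and 0.0054, edgeR). Summed cardiomyocyte markers, given at the start as CPM, were also lower in tributyrin replicates 1 and 3 than in every other mouse. That scale includes mitochondrial reads. On normalised counts the order did not hold for tributyrin replicate 3, whose sum exceeded that of vehicle replicate 2. Of the 10 markers, 7 had positive log2 fold changes. *Tnnt2* (0.23), *Tnni3* (0.21) and *Pln* (0.24) were higher with tributyrin and *Actc1* (-0.21) lower, each with an unadjusted p under 0.05 (edgeR). The part of these cells in the result was not tested either.

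Among the paralogues, *Rpl3l* and its canonical gene *Rpl3* had log2 fold changes of opposite sign. Both encode the same position of the large subunit, at its peptidyl transferase centre, and *Rpl3l* belongs to heart and skeletal muscle. Their coding sequences were 74.0% identical over 1210 aligned bases, and *Rpl3l* shared none of its windows with another gene, whereas 85.6% of the windows of *Rpl3* were copied. The first 90 coding bases, from the start codon, are printed here because the pair is compared within each mouse and the 21 capitals show how readily reads of the paralogues can be told apart. In GRCm38 they span chr15:80082496-80083326 (minus strand) for *Rpl3* and chr17:24727884-24728403 (plus strand) for *Rpl3l*, each with an intron in between.
Rpl3: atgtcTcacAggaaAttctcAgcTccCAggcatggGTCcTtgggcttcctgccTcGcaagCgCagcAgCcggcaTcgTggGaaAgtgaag
Rpl3l: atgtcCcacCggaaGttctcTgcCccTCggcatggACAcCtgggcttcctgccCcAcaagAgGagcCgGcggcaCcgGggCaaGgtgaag

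*Rpl3l* had 6670, 6810 and 6402 normalised counts with vehicle and 7890, 6488 and 7899 with tributyrin, a log2 fold change of 0.16 (SE 0.09, unadjusted p = 0.082, edgeR), which was 0.25 without tributyrin replicate 2. *Rpl3* had 2155, 2339 and 2157 with vehicle and 1854, 2026 and 2328 with tributyrin, a log2 fold change of -0.10 (SE 0.09, unadjusted p = 0.290, edgeR), which was -0.02 without tributyrin replicate 1, -0.06 without vehicle replicate 2 and -0.19 without tributyrin replicate 3. The log2 ratio of their counts was 1.63, 1.54 and 1.57 in the vehicle mice and 2.09, 1.68 and 1.76 in the tributyrin mice. Every tributyrin mouse lay above every vehicle mouse, and the difference was 0.26 (SE 0.13). It was 0.14 without tributyrin replicate 1, and 0.24 to 0.35 without any other mouse. The exact permutation test (two-sided) gave p = 0.1, the smallest value that 3 mice against 3 allow, and 0.3 after adjustment over 3 pairs. Per length, *Rpl3l* was at 2.94 ± 0.09 (SD, n = 3) times the level of *Rpl3* with vehicle and at 3.55 ± 0.55 with tributyrin. With so many windows of *Rpl3* copied, this ratio is uncertain as a ratio of mRNAs.

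The other pairs overlapped between the groups. The log2 ratio of *Rpl22l1* to *Rpl22* was -1.35, -1.57 and -1.43 with vehicle and -1.19, -1.36 and -1.38 with tributyrin, a difference of 0.14 (SE 0.09, exact permutation p = 0.3, adjusted 0.45). It was 0.08 without vehicle replicate 2 or without tributyrin replicate 1. That of *Rps27l*, a gene known to respond to p53, to *Rps27* was -2.22, -2.02 and -2.42 with vehicle and -2.19, -2.05 and -2.34 with tributyrin, a difference of 0.02 (SE 0.14, exact permutation p = 0.9, adjusted 0.9). *Rpl36al* (0.775 to 5.74 normalised counts) and *Rpl39l* (0 to 6.21) had too few reads for a ratio, and *Rpl10l*, known from the testis, had 0 counts in every library.

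**Figure D4:**
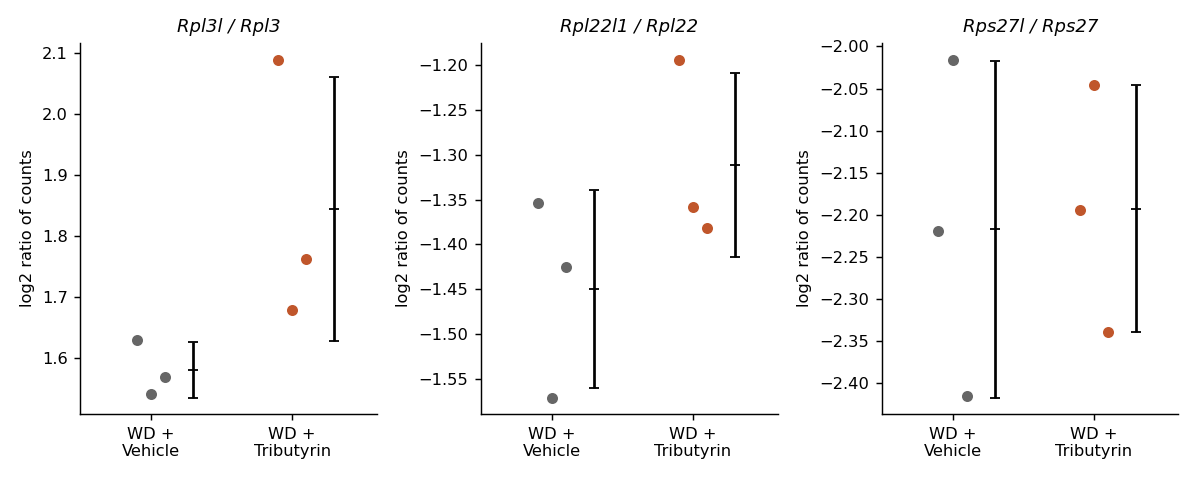
log2 ratio of the counts of a paralogue to those of its canonical gene (y axis, with a range of its own in each panel) by group (x axis); each point is 1 mouse, and the bar beside the points gives the mean and SD (n = 3). For *Rpl3l* over *Rpl3* the tributyrin mice lay at 1.68 to 2.09 and the vehicle mice at 1.54 to 1.63, while the groups overlapped for the other pairs.

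Levels between genes were compared as RPKM, the reads of a gene per kilobase of its main transcript, scaled to the reads counted in the library. On this scale the 77 canonical genes had a median of 135 (interquartile range 90.02 to 211) over the 6 mice. The highest were *Rplp1*, a stalk protein, at 592, then *Rps29* at 496, *Rps15* at 476, *Rps27* at 417 and *Rps2* at 414. The SDs within groups were 10.7 to 66.5. All genes were measured in the same mice, so these SDs are not the spread of a difference between genes. Whether neighbours such as *Rps29* and *Rps15*, or *Rps27* and *Rps2*, differ was not tested. The fitted log2 fold changes of these 5 genes were 0.07, 0.12, 0.11, 0.16 and 0.12 in the same order. Without tributyrin replicate 3 they were -0.02, 0.04, -0.02, 0.01 and 0.02, and without tributyrin replicate 2 they were 0.14, 0.18, 0.19, 0.28 and 0.23.

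The lowest canonical genes were *Rpl24* at 0.276, *Rpl13a* at 5.82, *Rpl23a* at 19.7, *Rps20* at 28.6 and *Rpl35* at 38.8. *Rpl24* had only 2 to 9 counts per library. In *Rpl24*, 69.4% of the windows also belonged to another annotated gene at the same locus, and the share was 57.4% in *Rpl13a*, 32.9% in *Rpl23a* and 59.0% in *Rpl35*, so for these genes the low values are uncertain as levels of mRNA. *Rps20* had no such overlap and 7.57% of its windows copied, but its main transcript is 3706 bases long, the longest of the tested members. It had 2537 to 3237 normalised counts. Its low RPKM rests on that length and is likewise uncertain as a level of mRNA. The copied share itself showed little relation to the level per length (Spearman's rho = 0.10 across 77 genes of the same 6 libraries, given as a description). *Rpl13a*, which is often used as a reference transcript, had 121 to 188 normalised counts with vehicle and 158 to 195 with tributyrin, a log2 fold change of 0.18 (SE 0.18, unadjusted p = 0.337, edgeR), which was 0.39 without vehicle replicate 2 and 0.05 without vehicle replicate 3.

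**Figure D5:**
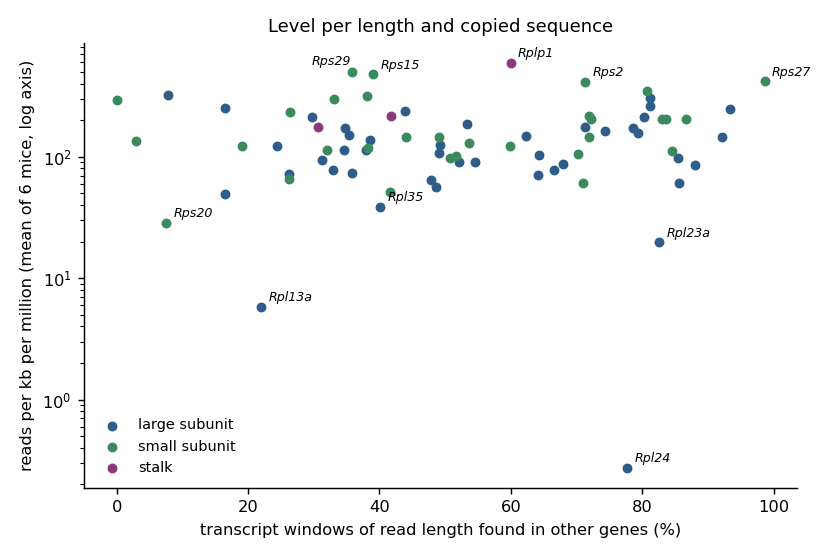
Level per length (y axis, log scale, RPKM, mean of the 6 mice) against the share of 50-base windows that other genes also hold (x axis, percent) for the 77 canonical genes, each point 1 gene. *Rpl24* (0.276), *Rpl13a* (5.82) and *Rpl23a* (19.7) lie under the others over a wide range of copied shares.

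The start sites were read because the TOP motif lies there. RefSeq start-site windows (GRCm38.p6) were at hand for 57 of the 77 canonical genes. A run of at least 8 pyrimidines (C or T, on the strand of the gene) within 15 bases on either side of the annotated start was present in 25 of them (43.9%) and in 13.9% of 27025 genes. The letters CCGGAAG, on either strand of the window from 250 bases before to 50 bases after the start, were present in 42.1% and in 9.93%, and TATAAA in 10.5% and in 15.7%. These are matches of letters and not sites of binding. The lines below give 30 bases around the start for the 4 members under an unadjusted p of 0.05 that have a window, and for *Rpl3l*, with the longest pyrimidine run in capitals. They lie at chr17:27635230-27635259 (minus strand) for *Rps10*, chr9:44407699-44407728 (plus) for *Rps25*, chr3:28805493-28805522 (plus) for *Rpl22l1*, chr3:86142654-86142683 (minus) for *Rps3a1* and chr17:24727811-24727840 (plus) for *Rpl3l*. The run had 13 bases in *Rps10*, 10 in *Rpl22l1*, 7 in *Rps25*, 5 in *Rpl3l* and 2 in *Rps3a1*.
Rps10: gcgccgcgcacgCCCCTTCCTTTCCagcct
Rps25: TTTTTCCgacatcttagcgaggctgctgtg
Rpl22l1: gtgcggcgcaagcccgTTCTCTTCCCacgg
Rps3a1: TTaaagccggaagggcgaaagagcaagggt
Rpl3l: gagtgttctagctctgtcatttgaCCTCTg

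Other genes of the translation machinery, and other genes with TOP transcripts, gave smaller medians. The lists were not matched to the ribosomal protein genes for transcript length, and the part of length in this was not tested. *Fau*, which encodes a further ribosomal protein fused to a ubiquitin-like protein, had a log2 fold change of 0.07 (SE 0.09). Of 21 further genes with TOP transcripts, which include the noncoding *Gas5* and *Snhg1*, 18 were positive with a median of 0.07. An unadjusted p under 0.05 was found for 0 of 21 (edgeR). The groups did not overlap for 4 of the 21, all higher with tributyrin, beside 4.26% of all genes tested. In that list *Eef1b2*, an exchange factor of elongation, was highest at 0.16 (SE 0.08) and *Pabpc1*, the poly(A)-binding protein, lowest at -0.08 (SE 0.09). The elongation factors had a median of 0.06 (6 of 9 positive) and the initiation factors of 0.04 (24 of 35), again with 0 under that threshold in either direction. Groups without overlap were found for 1 of the 9, higher with tributyrin. Of the 35 initiation factors, 4 were higher and 1 lower without overlap, beside 4.26% and 4.65% of all genes tested. The lists share genes such as *Eef1b2* and *Eif3e*. The regulators of TOP mRNAs had a median of -0.03 (4 of 11 positive), with *Cnbp* highest at 0.10 and *Rps6kb1*, the kinase of the protein Rps6, lowest at -0.14. Among these 11, groups did not overlap for 1 gene, higher with tributyrin.

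The 23 genes of RNA polymerase I and rRNA synthesis had a median of 0.05 (16 positive), and 2 of them, *Polr2k* (0.42, SE 0.15, unadjusted p = 0.017) and *Twistnb* (0.35, SE 0.14, unadjusted p = 0.036), were under an unadjusted p of 0.05 in the edgeR test, both polymerase subunits and both higher with tributyrin, beside 1.97% of all genes tested. *Twistnb* had 175 to 195 normalised counts with vehicle and 199 to 283 with tributyrin, so its groups did not overlap. *Polr2k* had 109 to 124 with vehicle and 139 to 176 with tributyrin, likewise without overlap, and *Polr1d*, a further polymerase subunit, had 796 to 809 and 845 to 997. These 3 of 23 genes stand beside 4.26% of all genes tested. The 49 tested genes of rRNA processing and subunit assembly had a median of 0.02 (29 positive), and 0 of them were under the threshold. They ran from *Rrp12*, an export factor of the subunits, at -0.35 (SE 0.17) to *Nop16*, a nucleolar protein, at 0.20 (SE 0.12). Groups without overlap were found for 4 of the 49 higher and 1 lower with tributyrin. None of the genes in these lists passed an FDR of 10% by edgeR.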

How the data were processed

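The authors deposited 1 file per library with raw read counts per gene (GENCODE M21 identifiers). Per the labels and the study's methods, stranded mRNA libraries were sequenced as single-end 50-base reads, trimmed with cutadapt 1.13, aligned to mm10 with STAR and counted with HTSeq 0.6.1p1, and the authors tested with DESeq2 1.14.1. The sources at hand do not state how the counting treated strand and multi-mapped reads. By default htseq-count leaves out reads that align to several places.

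From the deposited counts, edgeR 4.0.16 (R 4.3.3) was run with TMM scaling, filterByExpr (minimum count 10, minimum total 15) and the quasi-likelihood test on all genes, with Benjamini-Hochberg adjustment over all of them. Normalised counts are counts divided by DESeq2 1.42.0 size factors. Alternatives were DESeq2, limma-voom (limma 3.58.1), other scalings and filters, a replicate block, leaving out each library, and adding the counts of copies to their gene. The added copies were annotated pseudogenes at other loci with at least 10% of the windows of the gene, transcribed or not. This last alternative was chosen after seeing the data. The fit was tested on simulated data. No other columns held per-sample values. Some items are not reported here.

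Copied sequence was searched with 50-base windows on either strand of annotated GENCODE M21 transcripts of other genes. 54165 of 54232 identifiers matched that annotation. No protein sequences or unannotated copies were used here. Paralogue ratios were compared by exact permutation tests. The named genes are the 5 highest and 5 lowest differences, those under an unadjusted p of 0.05, the paralogues, the 5 highest and the 5 lowest canonical genes per length, *Rps3a1*, and the extremes of each other list. The members and lists were chosen with earlier results of these data known. Labels do not say how the animals were housed or batched, and p-values measure the spread between these 3 and 3 mice.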

Additional observations from a re-analysis of the deposited data

How the results depend on the processing

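Over the alternatives, 77 recomputed principal values were labelled as unchanged and 13 were not. The rule was loose, since a count could move by a set factor. The median log2 fold change could move by up to the SD between the mice of a group. It was thus labelled as unchanged with library size alone, at 0.04 against 0.11. The difference in the share of counts on the members, 0.0311 percentage points, changed sign without tributyrin replicate 3 (-0.0156 to 0.0755 over the libraries left out). The number of ribosomal protein genes past an FDR of 10% was 2 (*Rplp0* and *Rps3a1*), and past 5% was 1, with no filter on low counts (167 genes in all passed 10%), where 9 had an unadjusted p under 0.05 (4.60% of all genes). The adjusted p was then 0.0725 for *Rplp0* and 1.48e-34 for *Rps3a1*, and the cause was not tested. The number under an unadjusted p of 0.05 was 1 with library size alone (5.65% of all genes) and 3 with DESeq2 (1.80%). Leaving out 1 library gave 0 to 1 genes past either FDR and 2 to 43 genes under the unadjusted threshold. In these fits an arm of 2 mice is assumed to vary like the other. The log2 ratio difference of *Rps27l* to *Rps27* ran from -0.0754 to 0.125 (-0.0496 without tributyrin replicate 2) when 1 library was left out. With library size alone, *Rpl35* (-0.0099), *Rplp1* (-0.0070), *Rps19bp1* (-0.0591) and *Rps26* (-0.0727) turned negative, and *Rps26* was also negative with a mean CPM of at least 5 (-0.00094), limma-voom (-0.00078) and the replicate block (-0.000083). Leaving out 1 library gave ranges of -0.0439 to 0.159 for *Rpl35*, -0.0153 to 0.143 for *Rplp1*, -0.0214 to 0.185 for *Rps15*, -0.0931 to 0.105 for *Rps19bp1*, -0.0697 to 0.0691 for *Rps26*, -0.0940 to 0.0462 for *Rpl29* and -0.0777 to 0.0590 for *Rpl7l1*. Same-numbered mice of the groups had correlations of 0.205, 0.0309 and 0.0175 in their deviations, so the numbers were not taken as pairs. With the replicate block, 0 members passed an FDR of 10%, 6 had an unadjusted p under 0.05 (5.17% of all genes), the median of all members was 0.11, and the adjusted p of *Rps3a1* was 0.326. With few reads, *Rpl24* and the rare paralogues could not be tested.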
